A study of Mus musculus with 4 samples.

Results

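The genes examined were *Ifng*, which encodes the cytokine interferon gamma, *Cxcl9*, *Cxcl10* and *Cxcl11*, which encode the 3 chemokine ligands of the receptor CXCR3, and *Cxcr3* itself. They were taken by gene symbol and not by a rule on measured values, but with earlier results of these data known. They make up 5 of the 84 target genes on an inflammatory cytokine and receptor PCR array. FVB mice (FVB/NJ in the study's methods) of both sexes, aged 10 to 12 weeks, received intramuscular E-selectin/AAV2/2, an adeno-associated viral vector with the gene of the adhesion molecule E-selectin, or LacZ/AAV2/2, the same vector with a bacterial reporter gene, 4 and 2 days before surgery and on the day of surgery. Ischemia was induced in every mouse of both groups by closing the femoral artery (and vein, per the study's methods), and every mouse received intraperitoneal L-NAME, a nitric oxide synthase inhibitor, at 40 mg/kg. Ischemic adductor and gastrocnemius muscle was collected after 21 days, and the array was run on 2 plates per group with RNA pooled from 3 mice of that group. By that description each SD, SE and p-value below covers the spread between 2 arrays of 1 RNA pool and not the spread between mice. The spread was wide for repeat runs, and its source was not tested. The SD over genes of the difference between arrays was 1.60 cycles for E-selectin/AAV2/2 and 1.34 for LacZ/AAV2/2. The first value includes a single gene with a difference of -10.1 cycles. The median size of the difference was smaller for E-selectin/AAV2/2 (0.756) than for LacZ/AAV2/2 (1.12). No untreated or non-ischemic muscle was on these arrays. Neither *Sele*, the gene for E-selectin, nor any of the skeletal muscle genes *Acta1*, *Ckm*, *Myh4* and *Mb* was among the genes analysed here, so neither the transgene nor the tissue could be checked.

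Interferon gamma is made mainly by activated T cells and natural killer (NK) cells. It induces CXCL9, CXCL10 and CXCL11 in macrophages, endothelial cells, fibroblasts and muscle cells, and these ligands attract T and NK cells that carry CXCR3. CXCL10 and CXCL11 also respond to type I interferons, whereas CXCL9 depends more closely on interferon gamma. The 3 ligands lack the ELR motif of the neutrophil-attracting CXC chemokines and are known as angiostatic, since they restrain the growth of endothelial cells, which gives the set its interest in a study of vessel growth.

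In the RefSeq annotation of GRCm38.p6, *Cxcl9*, *Cxcl10* and *Cxcl11* lie next to each other on chromosome 5, with *Art3* annotated between *Cxcl9* and *Cxcl10*. *Ifng* lies on chromosome 10 and *Cxcr3* on chromosome X. *Cxcl11* is annotated there as a transcribed pseudogene, which holds for the C57BL/6J reference strain. The *Cxcl11* values below are thus transcript measurements in FVB mice and say nothing of a protein. RefSeq promoter sequence was found for 4 of the 5 genes, the exception being *Cxcl11*. The promoters of the 2 ligands with an entry are shown because *Cxcl9* and *Cxcl10* are neighbours with a common receptor. The stretches are the 250 bases before the annotated start, 5′ to 3′ on the minus strand of GRCm38.p6 (RefSeq, C57BL/6J), at chr5:92328080-92328329 for *Cxcl9* and chr5:92348890-92349139 for *Cxcl10*. Capitals mark matches, on either strand, to the core of the interferon-stimulated response element (GAAA repeated in the same orientation after any 2 bases), the gamma-activated site (TTCNNNGAA) or an NF-κB type site (GGGNNTTCC).
Cxcl9: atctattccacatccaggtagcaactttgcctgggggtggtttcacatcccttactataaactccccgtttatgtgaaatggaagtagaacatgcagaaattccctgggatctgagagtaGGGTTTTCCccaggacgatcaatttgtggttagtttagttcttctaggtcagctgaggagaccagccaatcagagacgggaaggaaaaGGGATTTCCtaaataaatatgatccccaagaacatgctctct
Cxcl10: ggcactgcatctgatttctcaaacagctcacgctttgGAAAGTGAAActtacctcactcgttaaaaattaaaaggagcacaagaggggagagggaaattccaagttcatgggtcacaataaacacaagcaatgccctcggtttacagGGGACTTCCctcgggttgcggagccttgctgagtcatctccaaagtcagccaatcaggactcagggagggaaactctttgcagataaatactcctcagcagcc
The *Cxcl10* stretch held 1 response element core, from 213 to 204 bases before the start, and 1 NF-κB type match, from 103 to 95. The *Cxcl9* stretch held 2 NF-κB type matches, from 130 to 122 and from 42 to 34 bases before the start. Neither stretch matched the gamma-activated site letters, the *Ifng* stretch matched them once, from 249 to 241 bases before its start, and the *Cxcr3* stretch matched none of the 3 motifs. None of these matches overlapped another. Of the 32851 promoter windows of the same length in the table, 2.98% held the response element core, 7.02% the gamma-activated site and 4.98% the NF-κB type site. The motifs were chosen with these promoters in view, and a match is a description of the letters only.

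Transcripts were measured by threshold cycle (Ct), the number of PCR cycles a well needs to reach a set fluorescence. An earlier Ct marks more transcript, and at full efficiency each cycle doubles the product. The normalized level is −ΔCt, the Ct of the gene on an array taken from the mean Ct of 5 reference genes (*Hsp90ab1*, *Gusb*, *Gapdh*, *B2m* and *Actb*) on that array. It is a log2 scale on which a higher value means more transcript. The arrays were not equally late. The median Ct of the 77 target genes with a Ct on all 4 arrays ran from 31.9 on LacZ/AAV2/2 replicate 2 to 34.1 on LacZ/AAV2/2 replicate 1, and after normalization the 2 LacZ/AAV2/2 arrays differed by a median of 1.12 per gene against 0.756 for the E-selectin/AAV2/2 arrays. The wells that control reverse transcription had a mean Ct between 23.1 and 24.7, latest on LacZ/AAV2/2 replicate 2. All 5 genes had a Ct on all 4 arrays and entered the test.

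None of the 5 genes was called different between the groups by limma (Benjamini-Hochberg adjusted p under 0.05), and none reached an unadjusted p under 0.05. Across the 77 genes tested, 5.19% passed the adjusted threshold and 13% the unadjusted one. The mean level of *Ifng*, *Cxcl9*, *Cxcl10* and *Cxcr3* was higher and that of *Cxcl11* lower with E-selectin/AAV2/2, with 46.8% of all tested genes on the higher side. The median log2 fold change was 0.75 over the 5 genes and -0.19 over all 77. For none of the 5 did the 2 groups separate without overlap, where 22.1% of tested genes had both E-selectin/AAV2/2 arrays above both LacZ/AAV2/2 arrays and 26% had both below, 48.1% together. What the 5 genes did share was their lowest array: LacZ/AAV2/2 replicate 1 gave the lowest normalized level for all 5, as it did for 37.7% of the tested genes. In RNA from whole muscle, fewer cells of a type and less RNA per cell cannot be told apart.

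*Ifng*, the cytokine at the head of the axis, had the latest Ct of the 5 genes on all 4 arrays, although Ct values of different assays do not rank transcripts by abundance. Its Ct was 36.2 and 35.3 on E-selectin/AAV2/2 replicates 1 and 2 and 38.5 and 35.8 on LacZ/AAV2/2 replicates 1 and 2. In the well that detects genomic DNA the Ct was 37.3 and 36.1 with E-selectin/AAV2/2 against 36.9 and 39.3 with LacZ/AAV2/2. *Ifng* thus crossed threshold 1.14 and 0.79 cycles before that well with E-selectin/AAV2/2, after it on LacZ/AAV2/2 replicate 1 (a lead of -1.62 cycles) and 3.49 cycles before it on LacZ/AAV2/2 replicate 2. The normalized level of *Ifng* was -11.85 and -11.50 with E-selectin/AAV2/2 and -13.23 and -11.82 with LacZ/AAV2/2. Both E-selectin/AAV2/2 arrays and LacZ/AAV2/2 replicate 2 lay close together, and LacZ/AAV2/2 replicate 1 lay below them. The log2 fold change was 0.85 (SE 0.98, 95% interval -1.27 to 2.96, limma adjusted p = 0.689).

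*Cxcl9*, the ligand tied most closely to interferon gamma, showed the largest difference of the set and ranked 9 of the 77 genes in log2 fold change. Its Ct was 32.7 and 31.2 with E-selectin/AAV2/2 and 37.2 and 32.2 with LacZ/AAV2/2. The normalized level was -8.39 and -7.35 with E-selectin/AAV2/2 and -11.93 and -8.18 with LacZ/AAV2/2. On LacZ/AAV2/2 replicate 1 the *Cxcl9* well crossed threshold after the genomic DNA well (a lead of -0.32 cycles), so its level there is not above that background, while the lead was 4.6 and 4.94 cycles with E-selectin/AAV2/2 and 7.13 on LacZ/AAV2/2 replicate 2. LacZ/AAV2/2 replicate 1 stood far below the other arrays, and LacZ/AAV2/2 replicate 2 lay between the 2 E-selectin/AAV2/2 arrays. The gap of 3.76 between the LacZ/AAV2/2 arrays was rank 2 in size among the 77 genes. The log2 fold change of *Cxcl9* was 2.18 (SE 1.20, 95% interval -0.41 to 4.78, limma adjusted p = 0.396), a 4.54-fold difference of geometric means. It became 2.45-fold when the ratio was taken between means of 2^-ΔCt, which weights the higher array. Most of the difference rested on LacZ/AAV2/2 replicate 1. Without that array the log2 fold change was 0.30 (limma adjusted p = 0.904), and with LacZ/AAV2/2 replicate 2 left out instead it was 4.06 and passed the threshold (limma adjusted p = 0.0436), with the lone LacZ/AAV2/2 array assumed to vary like the others. That call sets the E-selectin/AAV2/2 arrays against the single *Cxcl9* well at a Ct of 37.2, so the size of the difference is uncertain.

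*Cxcl10*, the ligand that also follows type I interferon, had a Ct of 31.8 and 32.0 with E-selectin/AAV2/2 and 34.5 and 31.4 with LacZ/AAV2/2. Its normalized level was -7.41 and -8.13 with E-selectin/AAV2/2 and -9.27 and -7.36 with LacZ/AAV2/2. LacZ/AAV2/2 replicate 2 was the highest of the 4 arrays and LacZ/AAV2/2 replicate 1 the lowest, with the E-selectin/AAV2/2 arrays between them. The log2 fold change of *Cxcl10* was 0.54 (SE 1.02, 95% interval -1.66 to 2.74, limma adjusted p = 0.799). It turned to -0.42 when LacZ/AAV2/2 replicate 1 was left out.

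*Cxcl11*, the ligand with the highest affinity for CXCR3, had a Ct of 33.4 on both E-selectin/AAV2/2 arrays against 35.4 and 32.1 with LacZ/AAV2/2. Its normalized level was -9.08 and -9.52 with E-selectin/AAV2/2 and -10.11 and -8.11 with LacZ/AAV2/2, so that the LacZ/AAV2/2 arrays again enclosed the E-selectin/AAV2/2 arrays. The log2 fold change of *Cxcl11* was -0.19 (SE 1.02, 95% interval -2.39 to 2.01, limma adjusted p = 0.899). It was -1.20 without LacZ/AAV2/2 replicate 1 and 0.81 without LacZ/AAV2/2 replicate 2.

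*Cxcr3*, the receptor carried by T and NK cells, had the earliest Ct of the 5 genes on all 4 arrays, 31.5 and 30.6 with E-selectin/AAV2/2 and 33.7 and 30.9 with LacZ/AAV2/2. Its normalized level was -7.11 and -6.77 with E-selectin/AAV2/2 and -8.49 and -6.89 with LacZ/AAV2/2. LacZ/AAV2/2 replicate 2 lay between the E-selectin/AAV2/2 arrays, and LacZ/AAV2/2 replicate 1 was lowest. The log2 fold change of *Cxcr3* was 0.75 (SE 0.99, 95% interval -1.39 to 2.89, limma adjusted p = 0.716), which became -0.056 when LacZ/AAV2/2 replicate 1 was left out. The intervals of *Ifng*, *Cxcl10*, *Cxcl11* and *Cxcr3* took in 2-fold changes in both directions, and that of *Cxcl9* in the higher direction. An exact two-sided permutation test of 2 arrays against 2 cannot give a p-value below 0.333.

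**Figure D1:**
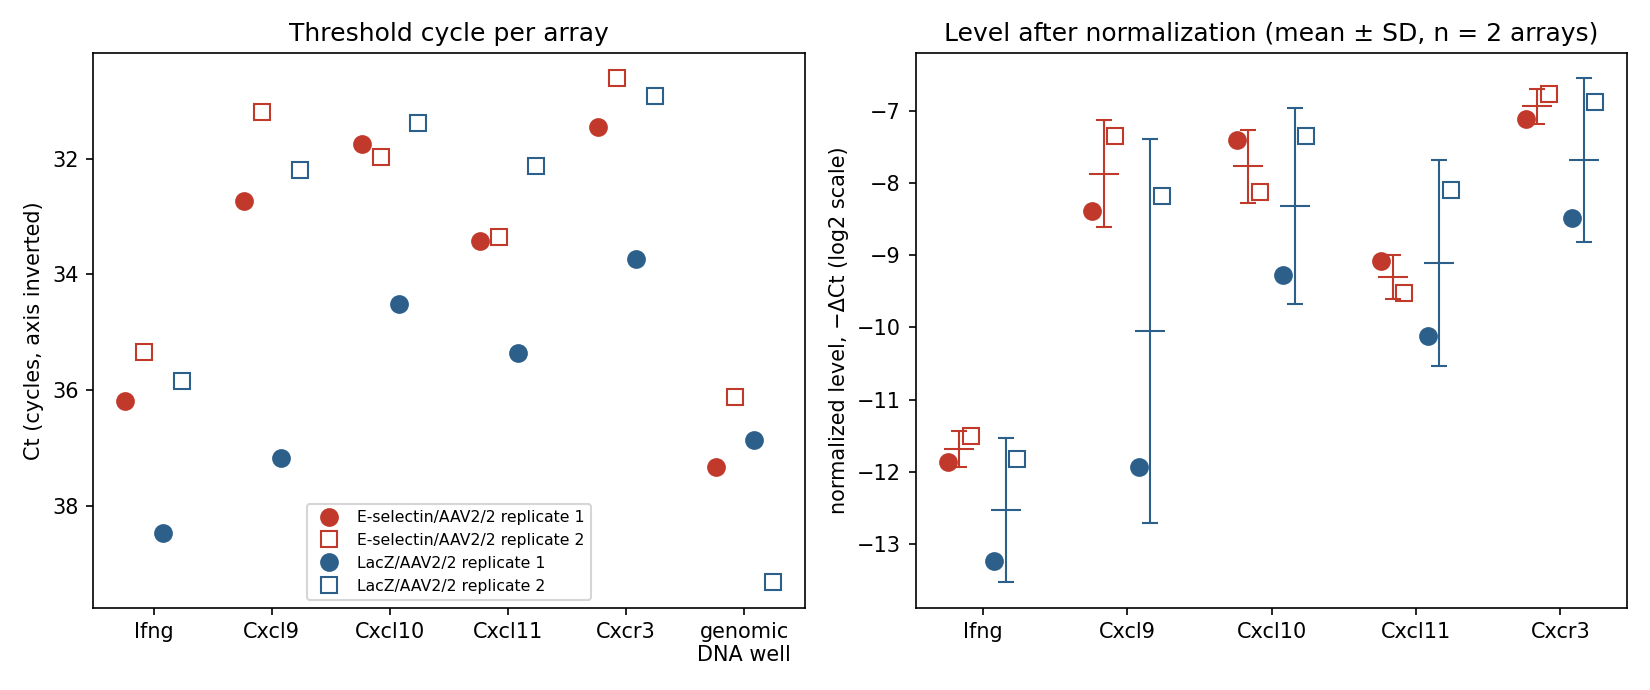
Left, Ct of the 5 genes and of the genomic DNA well on each of the 4 arrays, with the axis inverted so that more transcript is higher. Right, the normalized level (−ΔCt, log2 scale) of the 5 genes, where horizontal marks and bars give the mean and SD of the 2 arrays of a group. LacZ/AAV2/2 replicate 1 (filled blue circles) is the lowest array for all 5 genes, and no gene separates the E-selectin/AAV2/2 arrays (red) from the LacZ/AAV2/2 arrays (blue).

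Setting the genes against each other on the same array removes the reference genes from the comparison. Within the axis, *Cxcl11* differed from its companions in 1 respect: each of the other 4 genes was higher relative to *Cxcl11* on both E-selectin/AAV2/2 arrays than on both LacZ/AAV2/2 arrays. The Ct of *Cxcl11* minus that of *Cxcl10* was 1.67 and 1.39 cycles with E-selectin/AAV2/2 and 0.84 and 0.75 with LacZ/AAV2/2. Within each group the 2 arrays nearly coincided, with an SD of 0.198 and 0.0636, and the shift between the groups was 0.73 (log2). The excess of *Cxcl9* over *Cxcl11* was 0.69 and 2.17 with E-selectin/AAV2/2 and -1.82 and -0.07 with LacZ/AAV2/2. This shift of 2.38 (log2) was the largest among the 10 pairs. For *Cxcr3* over *Cxcl11* the shift was 0.94 and for *Ifng* over *Cxcl11* 1.04 (log2). On LacZ/AAV2/2 replicate 1 the *Cxcl9* and *Ifng* wells crossed threshold after the genomic DNA well. Their Ct there was 37.2 and 38.5, so late that a few template molecules can decide a well. The sizes of the shifts that use these wells are thus uncertain. Of the 10 pairs, 5 separated the groups without overlap, and 54.2% of all 2926 pairs of tested genes did so, so separation as such is usual on these arrays. The shift had a median size of 0.99 over the 10 pairs and of 1.49 over all pairs.

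*Ifng* and *Cxcr3* kept an almost fixed distance. The Ct of *Cxcr3* minus that of *Ifng* was -4.74 and -4.73 cycles with E-selectin/AAV2/2 and -4.74 and -4.93 with LacZ/AAV2/2. The root mean square difference between their mean-centred Ct profiles was 0.0838 cycles over the 4 arrays, rank 3 among the 2926 pairs of tested genes, whose median was 1.20. *Cxcl10* and *Cxcl11* differed by 0.382 cycles on this measure. *Cxcl9* lay at 1.07 to 1.44 cycles from the other 4 genes, around the median over all pairs. The profile nearest to *Cxcr3* outside the set was that of *Il13*, a type 2 cytokine (0.115 cycles), followed by *Fasl*, the death ligand of cytotoxic lymphocytes (0.265 cycles). The same pair was nearest to *Ifng*, at 0.170 for *Il13* and 0.330 for *Fasl*. *Cxcl9* was nearest to *Ccl5*, a chemokine of T and NK cells (0.691 cycles), and *Ccl12*, a monocyte chemoattractant (0.766 cycles). *Il17b*, an interleukin 17 family cytokine, was nearest to *Cxcl10* (0.329) and to *Cxcl11* (0.173), followed by *Fasl* for *Cxcl10* (0.448) and *Tnfrsf11b*, which encodes osteoprotegerin, for *Cxcl11* (0.270). The measure rests on 4 arrays of 2 RNA pools, and it is given as a description. *Ifng* and *Il13* had a Ct above 35 on all 4 arrays, where a few template molecules can decide a well. On LacZ/AAV2/2 replicate 1 both crossed threshold after the genomic DNA well.

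**Figure D2:**
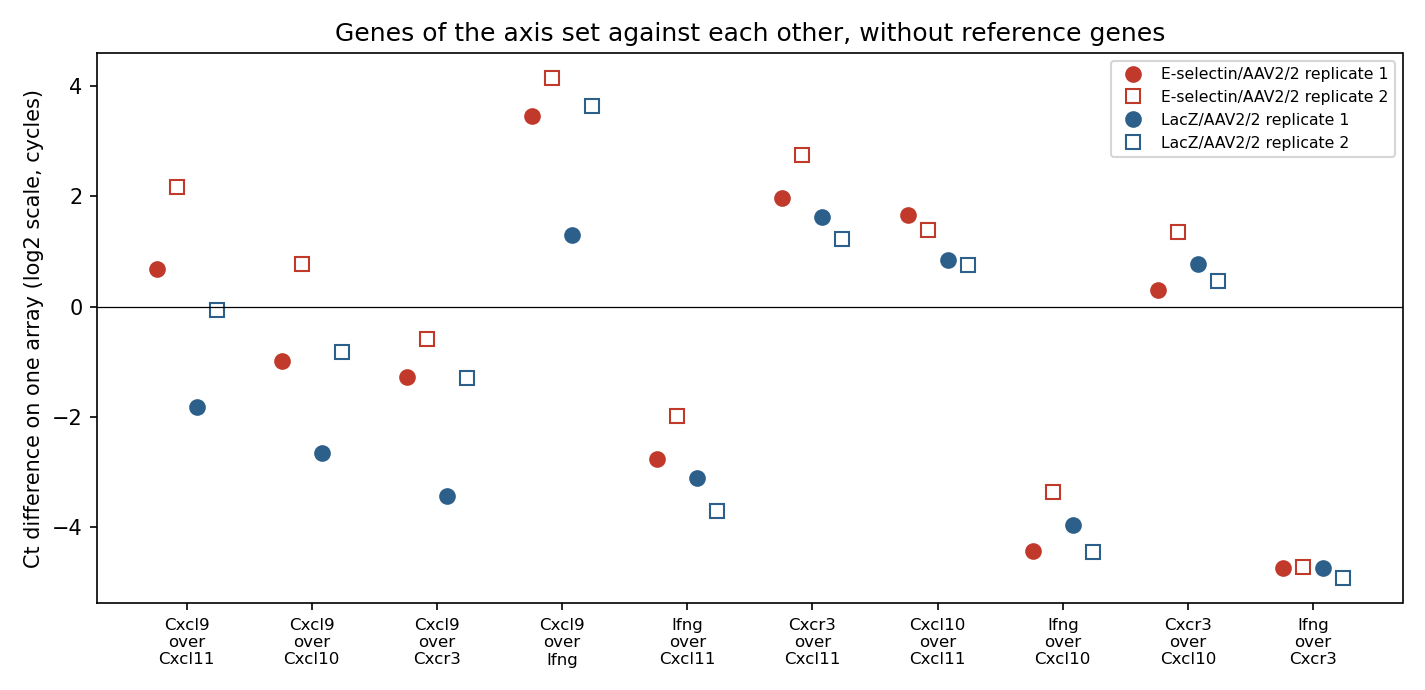
Ct differences between pairs of the 5 genes on the same array, on the log2 scale, for each of the 4 arrays, where a positive value means that the first gene had the lower Ct. The pairs over *Cxcl11* separate the E-selectin/AAV2/2 arrays (red) from the LacZ/AAV2/2 arrays (blue), and *Ifng* over *Cxcr3* lies between -4.93 and -4.73 on all 4 arrays.

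None of the other type 1 genes listed here passed the adjusted threshold. Of the T and NK cell genes *Cd40lg*, *Fasl*, *Il2rb* and *Lta*, 0 of 4 passed (1 at an unadjusted p under 0.05 in limma, *Cd40lg*). All 4 had a higher mean with E-selectin/AAV2/2. The median log2 fold change was 1.52, from 0.69 for *Lta*, a lymphotoxin, to 3.17 for *Cd40lg*, the CD40 ligand of helper T cells (limma adjusted p = 0.094). On LacZ/AAV2/2 replicate 1 the *Cd40lg* and *Fasl* wells (Ct 38.7 and 38.8) crossed threshold after the genomic DNA well (36.9). On LacZ/AAV2/2 replicate 2 *Cd40lg* (39.32) crossed level with that well (39.33). At such late Ct values a few template molecules can decide a well, so the size of the *Cd40lg* change is uncertain. Of *Il15*, *Il27*, *Tnfsf10* and *Tnfsf13b*, which promote type 1 cells or are induced by interferon, 0 of 4 passed (0 unadjusted), with a median of -0.53 and a range from -1.39 for *Il15*, a growth factor of NK and memory T cells, to 0.80 for *Tnfsf13b*, a B cell survival factor. The *Il27* well was also late on LacZ/AAV2/2 replicate 1 (Ct 37.2).

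Among the other CXC chemokines without the ELR motif, 1 of 3 passed. *Cxcl13*, the B cell attractant of lymphoid tissue, rose by 4.87 on the log2 scale (limma adjusted p = 0.00877), whereas the angiostatic platelet chemokine *Pf4* had a log2 fold change of -0.20 and *Cxcl12*, which attracts CXCR4-bearing progenitor cells, one of -1.18 (the lowest of the 3). The call of *Cxcl13* was lost when *B2m* was the only reference, and also without either E-selectin/AAV2/2 array or LacZ/AAV2/2 replicate 1. Of the neutrophil-attracting chemokines with the ELR motif, *Cxcl1*, *Cxcl5* and *Cxcl15*, 0 of 3 passed (0 unadjusted) and the median was -1.34, from -1.48 for *Cxcl15* to -0.60 for *Cxcl1*. All 3 had a Ct above 35 on at least 1 array, and *Cxcl1* had a Ct of 37.2 on LacZ/AAV2/2 replicate 1. Of the type 2 genes, 9 of 10 could be tested, 0 passed (1 at an unadjusted p under 0.05, *Il5*), and the median was 0.03, from -2.18 for *Il5*, the eosinophil growth factor, to 1.38 for *Ccr4*, a receptor of type 2 T cells. A Ct above 35, or none, on at least 1 array was found for 7 of the 10 type 2 genes. None of these lists was tested as a set.

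**Figure D3:**
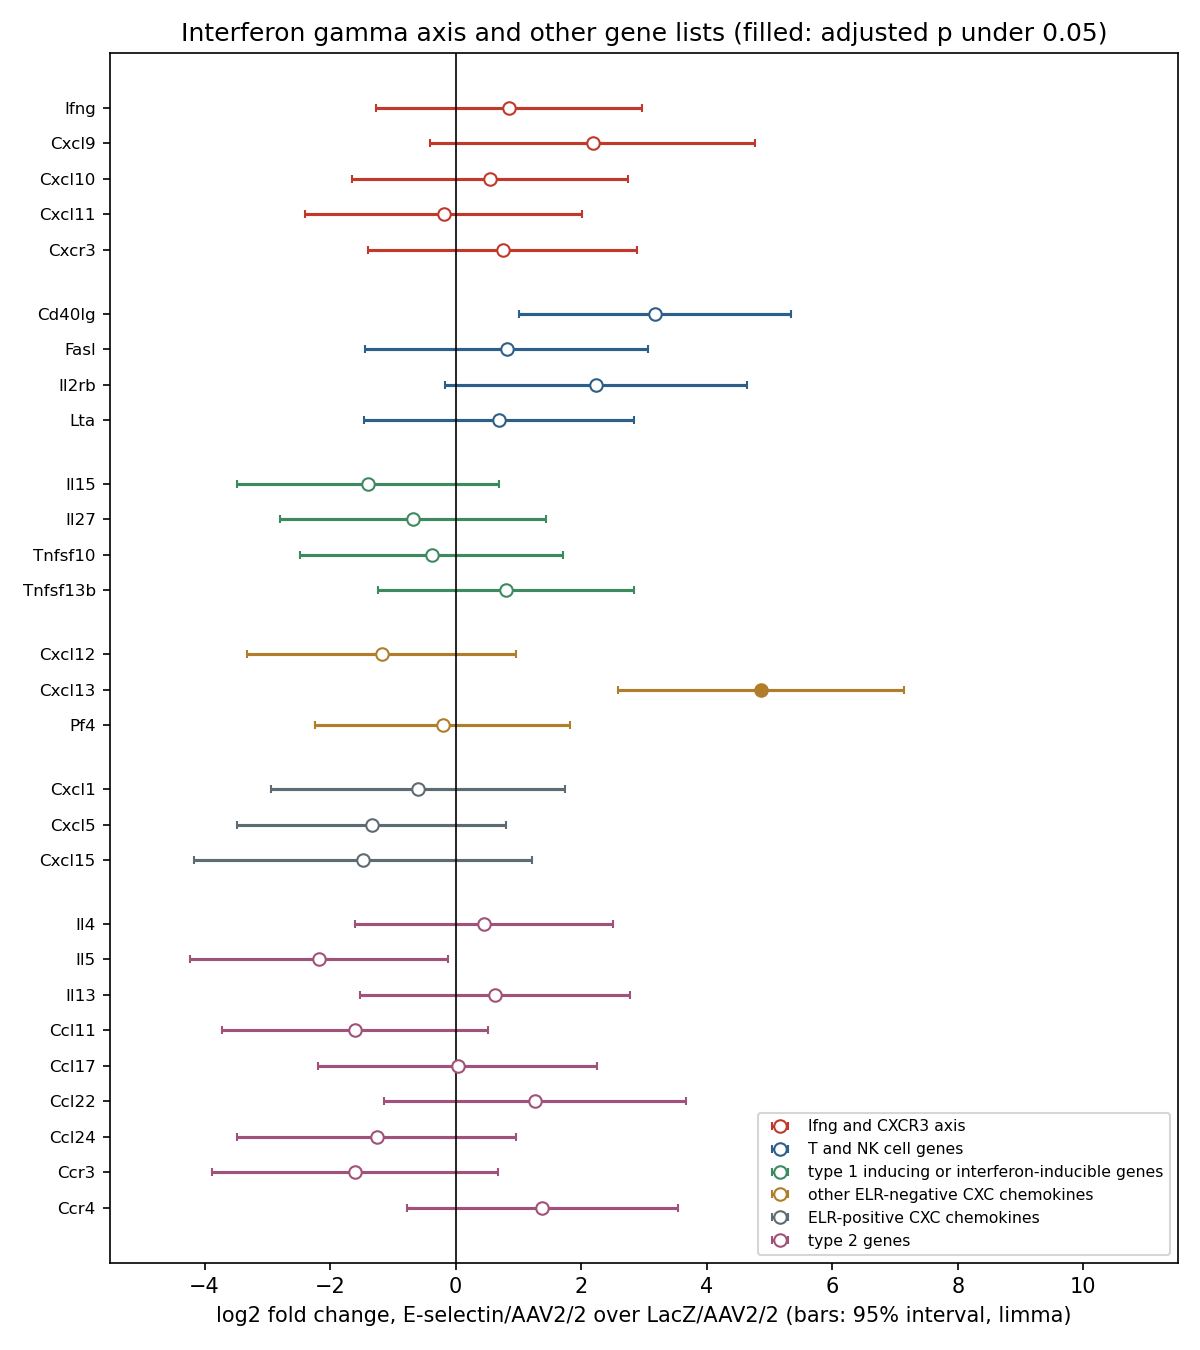
Log2 fold change of E-selectin/AAV2/2 over LacZ/AAV2/2 with its 95% interval (limma) for the 5 genes and 5 other gene lists, with filled points for an adjusted p under 0.05. The intervals of all 5 genes of the axis include 0, and *Cxcl13* at 4.87 is the only filled point.

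Markers of the cells that make or carry these products are few on this panel. The T and NK cell markers *Cd40lg*, *Fasl*, *Il2rb* and *Il2rg* had a summed level (log2 of the sum of 2^-ΔCt) of -3.31 and -4.93 with E-selectin/AAV2/2 and -5.56 and -5.58 with LacZ/AAV2/2. A higher mean with E-selectin/AAV2/2 was found for 4 of 4, against 46.8% of all tested genes, and their median log2 fold change was 1.83. *Cd40lg*, *Fasl* and *Il2rb* are also among the T and NK cell genes above, so the 2 lists are not separate evidence. The sum follows *Il2rg*, the shared cytokine receptor chain that other leukocytes also carry, whose own level was -3.37 and -4.99 against -5.60 and -5.63, and sums over different assays do not weigh genes by abundance. The B cell markers *Cxcr5* and *Ltb* summed to -3.26 and -4.73 against -6.79 and -8.65. That sum follows *Ltb*, which is not unique to B cells and whose own level was -3.55 and -4.99 against -6.81 and -8.98. *Cxcr5* passed the adjusted threshold (limma adjusted p = 0.00624) and *Ltb* did not (limma adjusted p = 0.0704), where 5.19% of all tested genes passed. The monocyte and macrophage markers *Ccr1*, *Ccr2*, *Il1b* and *Spp1* summed to -4.14 and -3.67 against -3.38 and -2.81, and 1 of 4 had a higher mean with E-selectin/AAV2/2. The platelet marker *Pf4* lay between -4.38 and -4.04 on all 4 arrays. No marker was without a Ct, but on LacZ/AAV2/2 replicate 1 *Cd40lg*, *Fasl* and *Cxcr5* crossed threshold after the genomic DNA well. The medians and sums that include them thus rest in part on late wells, where a few template molecules can decide the Ct. *Cxcr3* and *Ifng* had smaller log2 fold changes, 0.75 and 0.85, than the median of the T and NK cell markers, a difference that carries no test. The part of these cell types in the levels of the 5 genes was not tested.

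The reference genes changed by different amounts, so the choice among them shifts all 5 genes together. Their changes are given against their own mean, so values on both sides of 0 arise by construction. *B2m*, the light chain of MHC class I and itself known to be induced by interferon, was 1.44 higher with E-selectin/AAV2/2 against the mean of the 5 references (log2), and *Gapdh*, a glycolytic enzyme, changed by -1.11. *Actb* changed by 0.53, *Hsp90ab1* by -0.23 and *Gusb* by -0.63. With *B2m* as the only reference the log2 fold change was above 0 for *Cxcl9* alone (0.74), and with *Gapdh* as the only reference it was above 0 for all 5 genes, from 0.92 for *Cxcl11* to 3.29 for *Cxcl9*. With *B2m* left out of the 5 references the values were 1.21 for *Ifng*, 2.54 for *Cxcl9*, 0.90 for *Cxcl10*, 0.17 for *Cxcl11* and 1.11 for *Cxcr3*. None of the 5 genes passed the adjusted threshold under any choice of reference. The unadjusted p of *Cxcl9* in limma did fall below 0.05 under several. Among them were 0.0109 with *Gapdh* as the only reference (adjusted 0.0929), 0.0284 without *B2m* (adjusted 0.243) and 0.0394 with the median of the target genes (adjusted 0.253). In each of these settings limma gave all 5 genes the same SE (1.28, 1.15 and 1.05). The spread of *Cxcl9* was thus pooled with that of other genes, and its own wide LacZ/AAV2/2 gap did not set its p. *Cxcl9* had the highest value of the 5 and *Cxcl11* the lowest under every reference choice, since a reference moves all genes by the same amount.

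**Figure D4:**
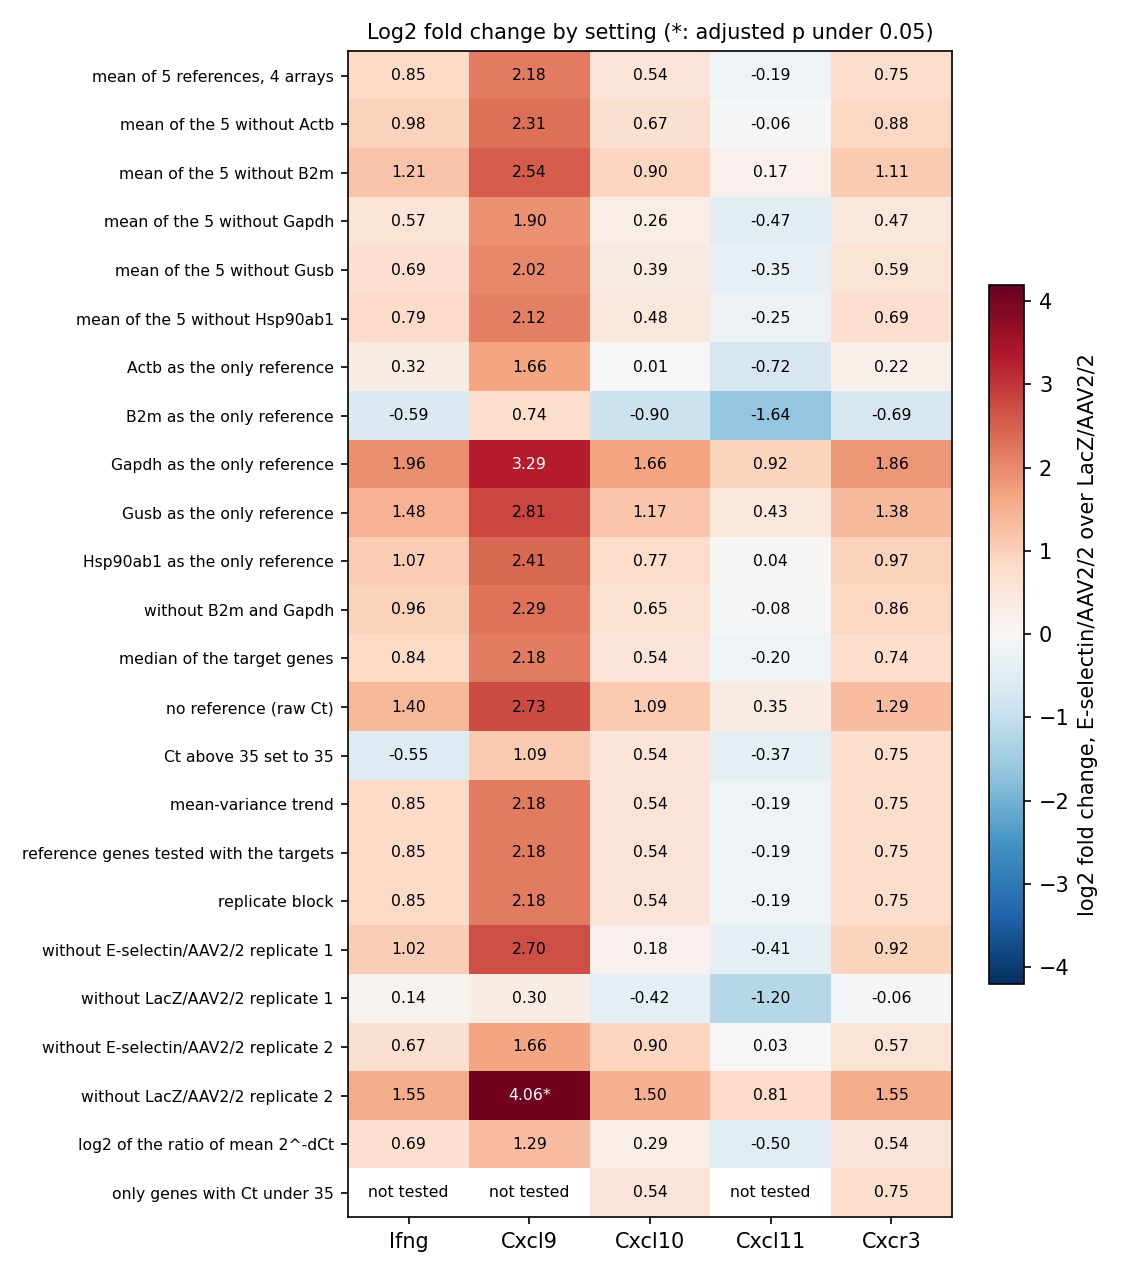
Log2 fold change of the 5 genes (columns) under each setting (rows), coloured from blue (lower with E-selectin/AAV2/2) to red (higher), with an asterisk at an adjusted p under 0.05. *Cxcl9* is above 0 in every row in which it was tested, *Cxcl11* changes sign with the reference, and the only asterisk is *Cxcl9* at 4.06 without LacZ/AAV2/2 replicate 2.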

How the data were processed

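Total RNA from ischemic muscle, pooled from 3 mice per group, was profiled by SYBR Green RT-qPCR on 2 Qiagen RT2 Profiler arrays per group. One label names an angiogenesis panel, whereas the catalog number given with it and the gene symbols belong to the panel of inflammatory cytokines and receptors. The labels give an RNeasy extraction with DNase I, the study's methods TRIzol. The authors deposited Ct values per well without normalization, baseline and threshold settings not given in the sources used here, and a second table from which only the gene symbols were read. Its other columns hold the authors' fold ratios and were not used. All 89 gene symbols matched RefSeq (GRCm38.p6).

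Following the study's methods, Ct values were normalized to the mean of 5 reference genes, and −ΔCt was compared with limma 3.58.1 in R 4.3.3 (two-sided, no covariate, Benjamini-Hochberg over the 77 target genes with a Ct on all 4 arrays, the other 7 left out). Late Ct values were kept, so a few template molecules can decide a well, and full PCR efficiency was assumed. Nothing states that the arrays of a group are separate samples, so p-values measure only the spread between these arrays, which may be technical. The 2 arrays of a group differed in their Ct values, so neither is a copy of the other's values. The script was tested on simulated data. The genes and lists were chosen with earlier results of these data known. A further chemokine list is not reported here. Named genes were the 5 genes, the references, the 2 nearest profiles per gene, and the called, highest and lowest gene of each list. Alternatives changed the reference genes, the handling of late Ct values, the variance model, the genes tested, the pairing and the arrays. Matplotlib 3.10.9 (Python 3.11.15) drew the figures.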

Additional observations from a re-analysis of the deposited data

How the results depend on the processing

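Across the other settings no call was made for *Ifng*, *Cxcl10*, *Cxcl11* or *Cxcr3*. *Cxcl9* was called once, without LacZ/AAV2/2 replicate 2 (log2 fold change 4.06), where the remaining LacZ/AAV2/2 well had a late Ct of 37.2. *Cxcl9* kept its direction in all 22 settings that gave it a value. Its log2 fold change fell from 2.18 to 1.09 with Ct values above 35 set to 35. For *Cxcl9* that setting altered only the LacZ/AAV2/2 replicate 1 well (Ct 37.2). With *B2m* as the only reference *Ifng* (-0.59), *Cxcl10* (-0.90) and *Cxcr3* (-0.69) turned negative. With Ct values above 35 set to 35, *Ifng* was -0.55, but all its wells then sat at 35 and only the reference genes were left to differ. *Cxcl11* turned positive without *B2m* (0.17), with *Gapdh* (0.92), *Gusb* (0.43) or *Hsp90ab1* (0.035) as the only reference and with raw Ct (0.35). Leaving out 1 array at a time, the log2 fold change ran from 0.14 to 1.55 for *Ifng*, from 0.30 to 4.06 for *Cxcl9*, from -0.42 to 1.50 for *Cxcl10*, from -1.20 to 0.81 for *Cxcl11* and from -0.056 to 1.55 for *Cxcr3*. The cause of these turns was not tested.

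The number of genes called, 4 here, was 7 when normalized to *Gapdh* or *Gusb* alone and 0 when normalized to *B2m* alone, where 26 genes had an unadjusted p under 0.05 in limma. Requiring a Ct under 30 on every array left 10 genes, none of the 5 described here among them, and 0 were called (0 at an unadjusted p under 0.05). The filter at Ct 35 removed *Ifng*, *Cxcl9* and *Cxcl11*. Leaving out 1 array, the count ran from 0 to 6, being 0 without either E-selectin/AAV2/2 array (8 and 7 genes at an unadjusted p under 0.05). The replicate numbers are not stated to mark a batch, and 2 pairs cannot show that they pair the arrays. Deviations of same-numbered arrays correlated at r = 0.332 over the 77 genes, which do not count as replicates. Adding the replicate block gave 5 called genes, *Cxcl9* stayed at 2.18 (limma unadjusted p = 0.0449, adjusted 0.288) and no call changed among the 5 genes described here. That fit gave all 5 the same SE (1.07), so the spread of *Cxcl9* itself did not set its p.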
